A study of Mus musculus with 6 samples.

Results

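The genes described here are 9 genes of red blood cells, all 9 of which were found among the 24062 gene symbols of the series table: the embryonic globin genes Hbb-y, Hbb-bh1 and Hba-x, the alpha-globin genes Hba-a1 and Hba-a2, the heme enzyme gene Alas2, and the transcription factor genes Klf1, Gata1 and Tal1. They were chosen by name, as genes that report how much primitive red cell RNA each library holds. The libraries came from mouse embryo heads of strain C57BL/6 at embryonic day 8.5. Mutant embryos carried the knockout-first allele tm1a of Prdm15, a zinc finger gene, on both chromosomes (Prdm15 tm1a-/-). Heterozygous embryos carried it on 1 chromosome (Prdm15 tm1a+/-) and wild-type embryos on none (Prdm15 tm1a+/+). Each genotype had 2 heads, by the labels' protocol, and 2 stranded paired-end libraries of polyA-selected RNA. The genotype labels name no promoter or Cre driver, and tm1a is a germline allele. The labels do not say whether embryos were littermates, so the p-values measure only the spread between these libraries.

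Primitive red cells arise in the blood islands of the yolk sac and enter the embryo once the heart begins to beat. They carry embryonic hemoglobins, in which alpha-like zeta-globin from Hba-x, and alpha-globin from Hba-a1 and Hba-a2, pair with the beta-like chains of Hbb-y (epsilon-y) and Hbb-bh1 (beta-h1). In mouse primitive erythroblasts beta-h1 is the main beta-like chain early, and epsilon-y takes its place as the cells mature. Gata1, Klf1 and Tal1 encode transcription factors of the red cell lineage: Gata1 binds GATA sites, Klf1 binds CACCC boxes, and Tal1 joins Gata1 in a larger complex.

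Between 29412227 and 40439234 reads per library were assigned to genes. For 1 wild-type and 1 mutant library the count files bear each other's sample titles. Files are used here by the title in their name, since each such file had its zeros at exactly the genes of the RPKM column of that title (0 genes differed in each of the 6 libraries). Prdm15, the targeted gene, stood at 26.5 and 32.0 CPM in mutant libraries, 28.3 and 31.8 CPM in heterozygous libraries and 35.1 and 32.6 CPM in wild-type libraries, and no difference passed (log2 fold change -0.21, SE 0.12, adjusted p = 0.221 for mutant against wild type in edgeR's quasi-likelihood test). Whole-gene counts therefore do not check the genotype labels. Libraries also differed in markers of other tissues: the 12 yolk sac visceral endoderm markers summed to 4274 to 5066 RPM (reads scaled to the library total) in mutant libraries and 1947 to 2704 in heterozygous libraries, against 8.70 to 16.6 in wild-type libraries, while the 13 neural progenitor markers of the labelled head tissue summed to 871 to 980, 1162 to 1371 and 1497 to 1550 RPM in the same order of genotypes.

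The globin genes differ in how well reads can be assigned to them, which the first 90 coding bases of each show. All lie in the first coding exon on GRCm38, from the GENCODE M21 transcripts, and capitals mark bases that differ from the partner gene. For the beta-like pair, 30 of these bases differ between Hbb-y (chr7:103853063-103853152, minus strand) and Hbb-bh1 (chr7:103843021-103843110, minus strand).
Hbb-y: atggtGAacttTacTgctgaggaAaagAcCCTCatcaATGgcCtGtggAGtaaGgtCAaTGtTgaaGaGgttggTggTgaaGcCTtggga
Hbb-bh1: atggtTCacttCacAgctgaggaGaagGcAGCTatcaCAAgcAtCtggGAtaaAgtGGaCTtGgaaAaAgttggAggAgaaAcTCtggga

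For the alpha genes, Hba-a1 (chr11:32283707-32283796, plus strand) and Hba-a2 (chr11:32296524-32296613, plus strand) are the same over this stretch, and Hba-x (chr11:32276664-32276753, plus strand) differs from Hba-a1 at 44 bases, marked in its line.
Hba-a1: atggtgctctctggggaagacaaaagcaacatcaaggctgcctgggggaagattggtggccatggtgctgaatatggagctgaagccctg
Hba-a2: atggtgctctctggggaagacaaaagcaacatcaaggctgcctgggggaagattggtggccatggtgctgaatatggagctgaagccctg
Hba-x: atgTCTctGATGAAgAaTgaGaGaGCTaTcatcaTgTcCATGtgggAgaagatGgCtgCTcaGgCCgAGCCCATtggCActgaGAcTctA

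Over the whole coding sequence of 429 bases Hba-a1 and Hba-a2 differ at 1 base, and the longest stretch that their transcripts share without a difference is 415 bases. Of the 50-base words of the Hba-a1 transcript, 67.5% are also in that of Hba-a2. Hbb-y and Hbb-bh1 differ at 105 of 444 coding bases (76.4% identity), their longest shared stretch is 26 bases, and they have 0 words of 50 bases in common. Hba-x and Hba-a1 differ at 163 of 429 coding bases and share at most 18 bases in a row. Reads without a unique alignment were set apart in the deposited files (12.7% to 14.5% of the reads of each file) and are in no gene's count. Reads of 50 bases that match exactly can therefore tell Hbb-y from Hbb-bh1 and Hba-x from Hba-a1, while the level of Hba-a1 and Hba-a2 is uncertain. Other globin genes and reads with mismatches were not compared.

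The libraries differed widely in embryonic globin RNA. Hbb-y, Hbb-bh1 and Hba-x together made up 26.9 and 8.81 RPM in mutant libraries and 4.16 and 227 in heterozygous libraries, against 163 and 232 in wild-type libraries. Both mutant libraries and 1 heterozygous library were thus low, and the other heterozygous library lay within the range of wild type. In bulk RNA fewer red cells and less globin RNA per red cell cannot be told apart. Levels are given below as RPKM of the deposited table, which is per kilobase of a length set for each gene and so can be compared between genes. The counts put this length at about 1988 bases for Alas2 and 4249 for Tal1, short of their spans on the chromosome.

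**Figure D1:**
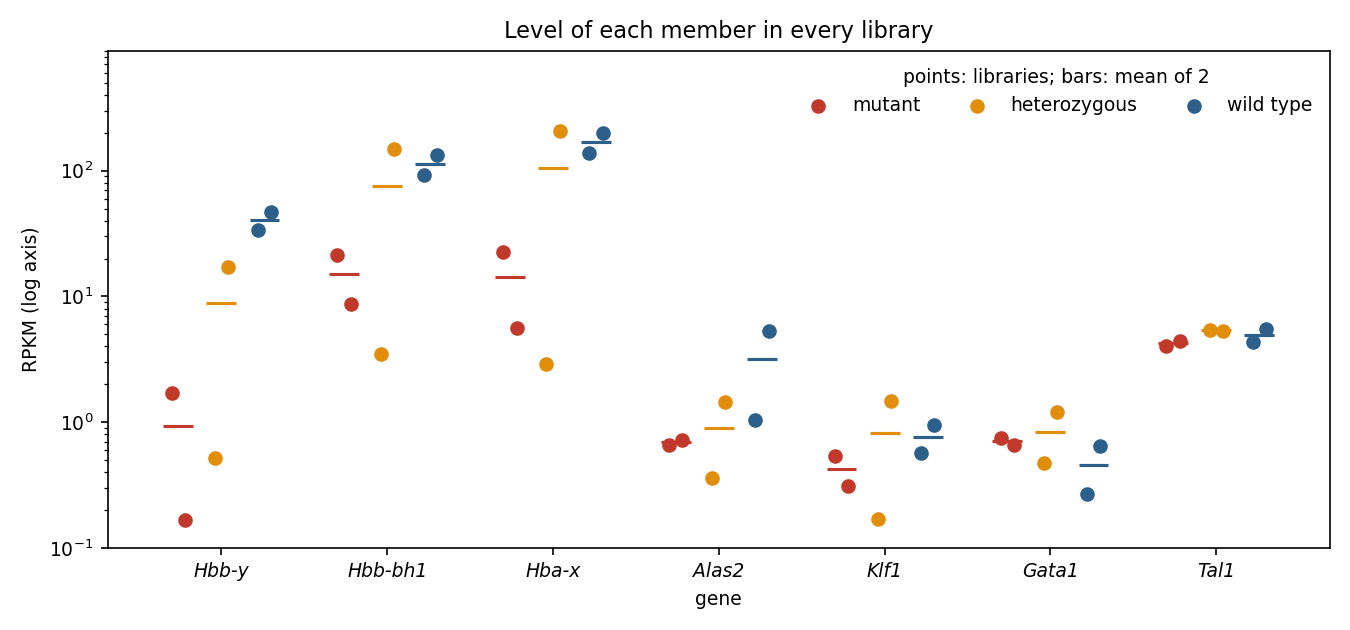
RPKM (log axis) of the 7 genes with more than a few reads, in each of the 6 libraries, with points for libraries and bars for the mean of 2. The 3 embryonic globin genes are low in both mutant libraries and in heterozygous replicate 1, while Tal1 lies between 4.03 and 5.52 RPKM in every library; Hba-a1 and Hba-a2 are not drawn because they are at or near 0.

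Hbb-y (chromosome 7, 103851749 to 103853216, minus strand, GRCm38) encodes epsilon-y-globin. It stood at 1.71 and 0.165 RPKM in mutant libraries and 0.521 and 17.1 RPKM in heterozygous libraries, against 34.0 and 47.3 RPKM in wild-type libraries. These rest on 40 and 3 reads in mutant libraries, 10 and 317 in heterozygous libraries and 868 and 1028 in wild-type libraries. All mutant and heterozygous values lay below both wild-type values. Hbb-y fell in mutant against wild-type libraries by 5.34 on the log2 scale (SE 1.54, adjusted p = 0.0475 by edgeR's quasi-likelihood test, adjusted after Benjamini-Hochberg over 15187 genes). This call was lost on leaving out any 1 mutant or wild-type library (adjusted p = 0.118, 0.170, 0.0866 and 0.0840, with log2 fold changes between -4.57 and -7.88) and with the files as attached (0.41, adjusted p = 1.00).

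Hbb-bh1 (chromosome 7, 103841637 to 103843164, minus strand) encodes beta-h1-globin. Its level was 21.5 and 8.76 RPKM in mutant libraries and 3.49 and 148 RPKM in heterozygous libraries, against 93.2 and 133 RPKM in wild-type libraries. Mutant values lay below both wild-type values, and the heterozygous pair lay on either side of them. In the fit of all 6 libraries the difference of mutant from wild type, -2.87 in log2 (SE 1.41, adjusted p = 0.174), did not pass. With only the mutant and wild-type libraries in the fit it passed (-2.88, adjusted p = 0.0151), as it did without heterozygous replicate 1 (adjusted p = 0.0152) or heterozygous replicate 2 (adjusted p = 0.0170).

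Hba-x (chromosome 11, 32276400 to 32278116, plus strand) encodes zeta-globin and had the highest level of the 9 genes in wild type. It stood at 22.7 and 5.62 RPKM in mutant libraries and 2.90 and 206 RPKM in heterozygous libraries, against 138 and 198 RPKM in wild-type libraries. The pattern over libraries was that of Hbb-bh1, with a log2 fold change of -3.53 (SE 1.62, adjusted p = 0.150) in mutant against wild type. Among the alternatives run it passed only where 1 or both heterozygous libraries were left out, at -3.54 (adjusted p = 0.0216) in the fit of mutant and wild type alone.

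The 2 heterozygous libraries were far apart, and this spread enters the common fit. Between them Hba-x differed 70.8-fold, Hbb-bh1 42.5-fold and Hbb-y 32.9-fold in RPKM, against 1.44-fold, 1.42-fold and 1.39-fold between the wild-type libraries. The mutant pair differed 4.04-fold, 2.46-fold and 10.4-fold for the same genes. Heterozygous against wild-type log2 fold changes were -2.20 (SE 1.27, adjusted p = 0.349) for Hbb-y, -0.57 (SE 1.29, adjusted p = 0.828) for Hbb-bh1 and -0.68 (SE 1.44, adjusted p = 0.813) for Hba-x, and none passed. Without heterozygous replicate 1 the sign turned for Hbb-bh1 (0.41, adjusted p = 0.748) and Hba-x (0.30, adjusted p = 0.873); without heterozygous replicate 2 Hbb-bh1 passed as lower (-5.01, adjusted p = 0.0407). Hbb-y was at -1.24 (adjusted p = 0.542) without heterozygous replicate 1 and at -6.27 (adjusted p = 0.0724) without heterozygous replicate 2. In mutant against heterozygous libraries the values were -3.14 (SE 1.5, adjusted p = 0.294), -2.30 (SE 1.39, adjusted p = 0.391) and -2.85 (SE 1.59, adjusted p = 0.358) for Hbb-y, Hbb-bh1 and Hba-x, and all 3 turned positive without heterozygous replicate 2 (0.91, 2.13 and 2.30, adjusted p = 0.789, 0.381 and 0.438).

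The make-up of the beta-like globin reads set wild type apart even from a library with as many globin reads. Hbb-y reads were 7.45% (95% exact binomial interval 5.37% to 10.0%) and 1.88% (0.388% to 5.38%) of all Hbb-y and Hbb-bh1 reads in mutant libraries. They were 13.2% (6.49% to 22.9%) and 10.5% (9.42% to 11.6%) in heterozygous libraries. Wild-type libraries had 27.0% (25.5% to 28.6%) and 26.6% (25.2% to 28.0%). No interval of a mutant or heterozygous library reached those of wild type, and the wild-type pair agreed within counting error.

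Heterozygous replicate 2 had as many globin reads as wild type and yet a share of Hbb-y near that of heterozygous replicate 1. The mean share was 4.66% ± 3.94 in mutant, 11.8% ± 1.88 in heterozygous and 26.8% ± 0.333 in wild-type libraries (SD, n = 2 each). An exact two-sided permutation test of 2 against 2 libraries cannot give a p below 0.333, so no test is given. The intervals cover counting error only, since reads are not independent molecules. On the per-length scale Hbb-y over Hbb-bh1 was 0.0793 and 0.0188 in mutant libraries and 0.149 and 0.116 in heterozygous libraries, against 0.365 and 0.357 in wild-type libraries. With the count files as attached, the library at 7.45% would be a wild-type one and a library at 26.6% a mutant one, and mutant and wild-type values would overlap.

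**Figure D2:**
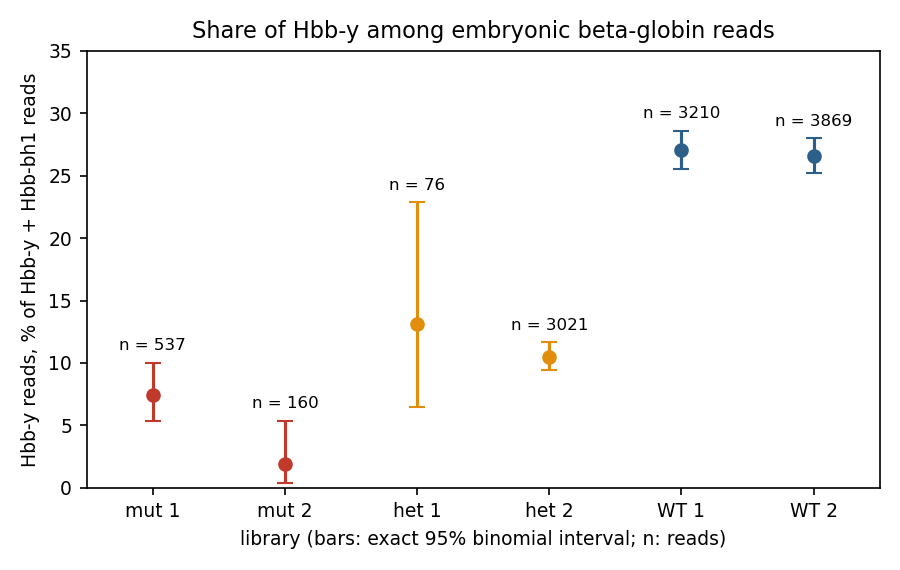
Hbb-y reads as a percentage of Hbb-y plus Hbb-bh1 reads in each library, with exact 95% binomial intervals and the number of reads above each point. Both wild-type libraries lie near 27% and every other library at or below 13.2%.

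The share of zeta-globin was less distinct. Hba-x reads were 49.0% (45.9% to 52.0%) and 38.2% (32.3% to 44.4%) of the reads of the 3 embryonic globin genes in mutant libraries, 41.5% (33.0% to 50.5%) and 55.0% (53.8% to 56.1%) in heterozygous libraries and 51.4% (50.2% to 52.6%) and 51.9% (50.8% to 53.0%) in wild-type libraries. The heterozygous pair lay on either side of wild type, and the interval of the first mutant library overlapped those of wild type.

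Reads of the adult-type globin genes were close to absent. Hba-a1 (chromosome 11, 32283511 to 32284465, plus strand) had 0 reads in all 6 libraries. Hba-a2 (chromosome 11, 32296489 to 32297298, plus strand) had 1 and 0 reads in mutant libraries, 0 and 0 in heterozygous libraries and 0 and 5 in wild-type libraries. Neither was tested. For these genes the counts hold only reads that fit 1 of the near-identical copies and not the other, so these counts understate their RNA by an amount that was not measured. The 7 other globin genes found, which include the adult beta-globins Hbb-b1, Hbb-b2, Hbb-bs and Hbb-bt, summed to 0.0256 and 0.102 RPM in mutant libraries, 0.0640 and 0.575 in heterozygous libraries and 0.148 and 0.519 in wild-type libraries, and 0 of them were tested. How alike their sequences are was not measured. Reads that fit more than 1 of them would be in no gene's count, so this sum may also understate their RNA.

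Alas2 (chromosome X, 150547375 to 150570638, plus strand) encodes the red cell form of the first enzyme of heme synthesis. It stood at 0.655 and 0.723 RPKM in mutant libraries and 0.359 and 1.44 RPKM in heterozygous libraries, against 1.04 and 5.35 RPKM in wild-type libraries. Both mutant values were below wild type, where the second library was 5.13-fold above the first. Mutants differed from wild type by -2.20 in log2 (SE 0.92, adjusted p = 0.122), which did not pass. The value was -0.60 (adjusted p = 0.596) without wild-type replicate 2. It passed without wild-type replicate 1 (-2.94, adjusted p = 0.0468) and in DESeq2 (-2.20, adjusted p = 0.0371). Heterozygous against wild type gave -1.83 (SE 0.91, adjusted p = 0.286) and mutant against heterozygous -0.38 (SE 0.92, adjusted p = 0.843). The heterozygous against wild-type value was -0.22 without wild-type replicate 2 and -3.14 without heterozygous replicate 2.

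Klf1 (chromosome 8, 84901928 to 84905291, plus strand), the erythroid Kruppel-like factor that binds globin promoters, was at 0.534 and 0.311 RPKM in mutant libraries and 0.168 and 1.48 RPKM in heterozygous libraries, against 0.570 and 0.947 RPKM in wild-type libraries. Its reads numbered 31 and 14, 8 and 68, and 36 and 51 in the same order. Over the 6 libraries it was lowest and highest in the heterozygous pair, as were Hbb-bh1 and Hba-x. Klf1 of mutants differed from wild type by -0.82 in log2 (SE 0.93, adjusted p = 0.542). The heterozygous against wild-type value of 0.13 (SE 0.90, adjusted p = 0.946) and that of mutant against heterozygous, -0.94 (SE 0.93, adjusted p = 0.597), did not pass either.

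Gata1 (chromosome X, 7959260 to 7978071, minus strand), the GATA factor that red cell precursors require, did not follow the globins between genotypes. It stood at 0.751 and 0.662 RPKM in mutant libraries and 0.475 and 1.20 RPKM in heterozygous libraries, against 0.268 and 0.644 RPKM in wild-type libraries. Both mutant values lay above wild type, by little for the second wild-type library. Within each genotype the library with more embryonic globin RNA had the higher Gata1 level. Heterozygous replicate 2 had the highest level of all. The log2 fold changes were 0.65 (SE 0.59, adjusted p = 0.444) for mutant and 0.88 (SE 0.59, adjusted p = 0.415) for heterozygous against wild type, and -0.23 (SE 0.58, adjusted p = 0.847) for mutant against heterozygous. None passed. Without wild-type replicate 1 or replicate 2 the mutant value was 0.16 or 1.39, and leaving out 1 library put the heterozygous against wild-type value between 0.0687 (without heterozygous replicate 2) and 1.63 (without wild-type replicate 2).

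Set against the summed RPKM of the 3 embryonic globin genes, Gata1 stood at 1.63 and 4.55 per 100 globin RPKM in mutant libraries and 6.87 and 0.322 in heterozygous libraries, against 0.101 and 0.170 in wild-type libraries. Klf1 stood at 1.16 and 2.14 in mutant libraries and 2.43 and 0.40 in heterozygous libraries, against 0.215 and 0.250 in wild-type libraries. The globin sum in the denominator is itself low in both mutant libraries and in heterozygous replicate 1, so there the ratio restates that level; in heterozygous replicate 2, with a globin sum in the range of wild type, both ratios were also above both wild-type libraries. Alas2 per 100 globin RPKM was 1.42 and 4.97 in mutant libraries, 5.19 and 0.387 in heterozygous libraries and 0.394 and 1.41 in wild-type libraries, so for Alas2 the heterozygous and wild-type ranges overlapped.

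Tal1 (chromosome 4, 115056426 to 115071755, plus strand) is needed for all blood formation and is also expressed in endothelium and in some neurons of the developing brain. It was nearly level, at 4.03 and 4.44 RPKM in mutant libraries, 5.43 and 5.29 RPKM in heterozygous libraries and 4.31 and 5.52 RPKM in wild-type libraries. Mutant and wild-type values overlapped. The log2 fold changes were -0.21 (SE 0.14, adjusted p = 0.290) for mutant and 0.13 (SE 0.13, adjusted p = 0.605) for heterozygous against wild type, and -0.33 (SE 0.14, adjusted p = 0.235) for mutant against heterozygous. Scaled to the neural progenitor markers in place of TMM, Tal1 was higher in mutant than in wild-type libraries (0.46, adjusted p = 0.0409), under a scaling that moved the median of all genes by 0.65.

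The order of the levels differed between genotypes. In wild type the mean RPKM was 168 ± 43.1 for Hba-x, 113 ± 27.9 for Hbb-bh1, 40.7 ± 9.37 for Hbb-y, 4.91 ± 0.856 for Tal1, 3.20 ± 3.05 for Alas2, 0.758 ± 0.267 for Klf1 and 0.456 ± 0.266 for Gata1 (SD, n = 2 each). The ranges of Tal1 and Alas2 overlapped, as did those of Klf1 and Gata1. In mutants Hbb-bh1 (15.2 ± 9.04) and Hba-x (14.2 ± 12.1) led with overlapping ranges, followed by Tal1 (4.23 ± 0.295), Hbb-y (0.937 ± 1.09), Gata1 (0.707 ± 0.0625), Alas2 (0.689 ± 0.0480) and Klf1 (0.423 ± 0.158), where the range of Hbb-y took in those of Gata1, Alas2 and Klf1. In heterozygous libraries the mean RPKM was 104 ± 143 for Hba-x and 75.9 ± 102 for Hbb-bh1, with SDs larger than the means.

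**Figure D3:**
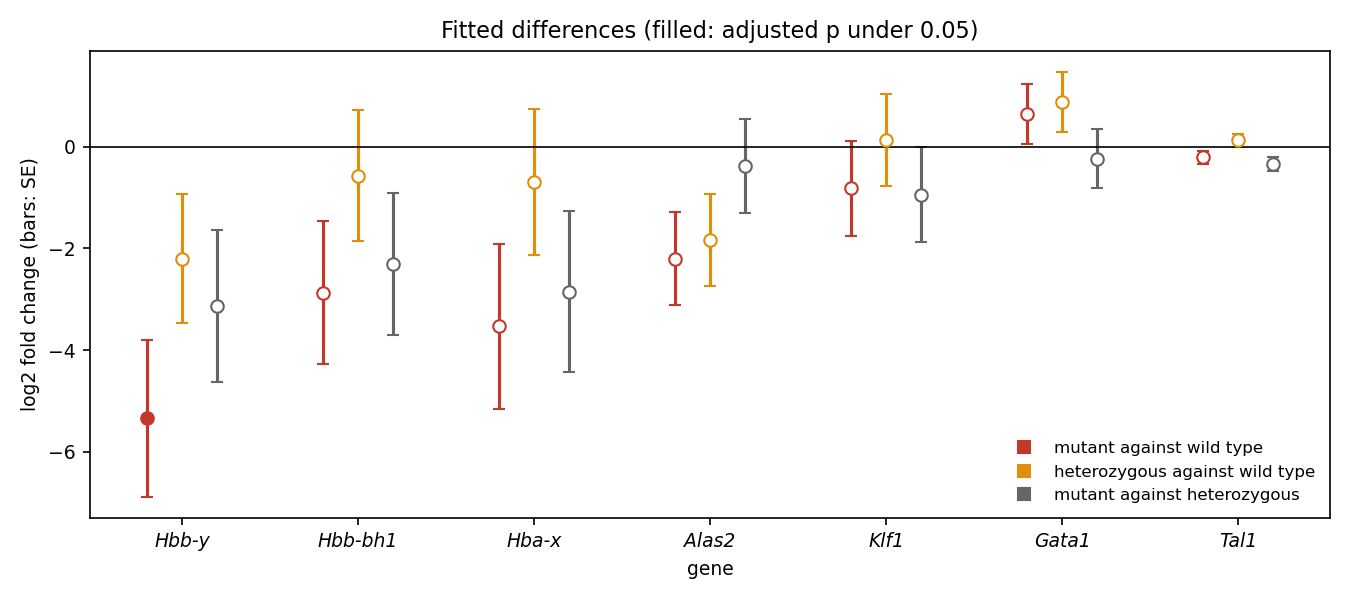
Log2 fold changes with SE from edgeR's fit of all 6 libraries for the 7 genes tested, in mutant against wild type, heterozygous against wild type and mutant against heterozygous. Filled points have an adjusted p under 0.05: only Hbb-y in mutant against wild type, at -5.34 (SE 1.54).

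Of the 9 genes, 7 passed the filter on low counts. In mutant against wild type 1 of these 7, Hbb-y, was called lower and 0 were called higher; 30.6% of all 15187 genes tested were called, 13.6% lower and 17.1% higher. The mutant and wild-type libraries did not overlap for 5 of the 7 as lower and for 1, Gata1, as higher, against 36.1% and 34.9% of all tested genes; in heterozygous against wild type 1, Hbb-y, did not overlap as lower (27.6% of all, and 28.7% as higher) and in mutant against heterozygous 1, Tal1, was lower without overlap (26.4% of all, and 27.6% as higher). The median log2 fold change of the 7 was -2.20, against -0.02 over all tested genes. In heterozygous against wild type 0 of 7 were called, with 6.56% of all genes called, 0.533% lower and 6.03% higher, and a median of -0.57 against -0.01. There 0 of the 7 had an unadjusted p under 0.05, and DESeq2 and the likelihood ratio test called 0. In mutant against heterozygous 0 of 7 were called, with 0.435% of all genes called, 0.362% lower and 0.0724% higher, and 1 of the 7, Tal1, had an unadjusted p under 0.05, while DESeq2 and the likelihood ratio test called 0 of them. Mutant against wild type and heterozygous against wild type share their wild-type libraries.

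In the authors' deposited table mutants differ from wild type in log2 by -5.41 for Hbb-y (false discovery rate 4.24e-05), -2.90 for Hbb-bh1 (0.0151), -3.57 for Hba-x (0.0246) and -2.21 for Alas2 (0.0252). For Klf1 the authors' deposited table gives -0.83 (0.671), for Gata1 0.64 (0.700) and for Tal1 -0.21 (0.650). Its fold changes lie close to those fitted here, while its rates are lower for Hbb-y, Hbb-bh1, Hba-x and Alas2. The likelihood ratio test run here on all 6 libraries gave adjusted p = 0.00521 for Hbb-y, 0.0892 for Hbb-bh1, 0.0638 for Hba-x and 0.0594 for Alas2, so the last 3 did not pass by it either. Of all genes in the authors' deposited table, 5.56% are lower and 8.74% higher at a rate under 0.05.

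The counts of other red cell genes are to be read against the 17.1% of all tested genes called higher and the 13.6% called lower in mutant against wild type. Of 17 tested genes of the red cell membrane and skeleton, 1 fell and 1 rose in mutant against wild type, with a median log2 fold change of -0.54; fewer were thus called than the 30.6% of all genes. Slc4a1, the anion exchanger band 3, was at 0.638 and 0.0681 CPM in mutant libraries and 0.0644 and 2.68 CPM in heterozygous libraries, against 5.78 and 8.45 CPM in wild-type libraries (log2 fold change -4.26, SE 1.46, adjusted p = 0.0755). All its mutant and heterozygous values thus lay below both wild-type values, as for Hbb-y but not Hbb-bh1 or Hba-x. The difference did not pass.

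Xk, which encodes a membrane protein of red cells and other tissues, fell by 0.82 (SE 0.17, adjusted p = 0.0173). Tmod1, tropomodulin, which caps actin filaments in red cells and in heart muscle, rose by 2.22 (SE 0.47, adjusted p = 0.0186), in libraries in which the 12 heart markers summed to 1061 to 1875 RPM, against 49.4 to 225 in wild type; the part of heart tissue in this rise was not tested. Among 11 red cell enzyme genes 2 rose and 2 fell, a share near that of all genes. Pklr, pyruvate kinase of liver and red cells, rose by 3.78 (SE 0.29, adjusted p = 0.00103) and the glutathione peroxidase gene Gpx1 by 0.53 (SE 0.07, adjusted p = 0.00471). Ube2o, a ubiquitin ligase gene, fell by 0.37 (SE 0.06, adjusted p = 0.0107), and Car2, a carbonic anhydrase gene, by 0.27 (SE 0.07, adjusted p = 0.0368).

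Among genes of heme synthesis other than Alas2, 7 of 14 rose and 0 fell in mutant against wild type, with a median log2 fold change of 0.39, where 17.1% of all genes were called higher. Cpox, a late enzyme of the pathway, was at 66.3 and 57.6 CPM in mutant libraries and 64.2 and 63.9 CPM in heterozygous libraries, against 38.2 and 38.1 CPM in wild-type libraries, and rose in both comparisons with wild type (0.70, SE 0.08, adjusted p = 0.00378 in mutants and 0.75, adjusted p = 0.00806 in heterozygotes). Slc25a39, a mitochondrial carrier, rose by 0.71 (SE 0.06, adjusted p = 0.00107), Abcb6 by 0.69 (SE 0.09) and Glrx5 by 0.54 (SE 0.07). In heterozygous against wild type 3 of the 14 rose and 0 fell, where 6.03% of all genes were called higher. All cells make heme. The yolk sac sums of the opening paragraphs were also higher in mutant and heterozygous libraries than in wild type. Those sums were lower in heterozygous than in mutant libraries, while Cpox was nearly level between them (log2 fold change -0.05, SE 0.08). The part of yolk sac tissue in the levels of the heme genes was not tested. Among 9 iron genes 4 rose and 2 fell. The iron exporter gene Slc40a1 rose by 2.57 (SE 0.17, adjusted p = 0.000658), Fth1 and Ftl1, which encode the ferritin chains, by 0.97 (SE 0.17) and 0.62 (SE 0.09), and the transferrin receptor gene Tfrc fell by 0.40 (SE 0.07, adjusted p = 0.0114).

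Among 16 transcription factors and cofactors of red cells and blood stem cells 4 rose and 2 fell, again a share near that of all genes. Zfpm1, which encodes FOG-1, a partner of Gata1 in blood and of Gata4 in heart, was at 143 and 116 CPM in mutant libraries and 93.6 and 75.4 CPM in heterozygous libraries, against 24.8 and 22.8 CPM in wild-type libraries (2.44, SE 0.15, adjusted p = 0.000613). The corepressor gene Cbfa2t3 rose by 1.77 (SE 0.21, adjusted p = 0.00364). Myb, a factor of blood progenitors and other dividing cells, fell by 0.84 (SE 0.20, adjusted p = 0.0282), and Klf3 by 0.40 (SE 0.09, adjusted p = 0.0271). Of 9 genes of erythropoietin and Kit signalling 3 rose and 1 fell. Kitl, the Kit ligand gene, rose by 0.94 (SE 0.10, adjusted p = 0.00284), Stat5a by 0.93 (SE 0.26, adjusted p = 0.0425) and Cish by 0.81 (SE 0.20, adjusted p = 0.0308), while Kit fell by 0.62 (SE 0.17, adjusted p = 0.0377).

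Markers of endothelium, platelets and white cells were also counted. The 14 endothelial markers summed to 469 to 502 RPM in mutant libraries, 416 to 463 in heterozygous libraries and 340 to 477 in wild-type libraries, with 2 of 14 higher and 0 lower in mutant against wild type; the receptor gene Tek rose by 1.60 (SE 0.18, adjusted p = 0.00301) and Sox17, also a gene of endoderm, by 1.16 (SE 0.18, adjusted p = 0.00774). The share higher was close to the 17.1% of all tested genes. Emcn, endomucin, had a pattern nearer that of the globins, at 2.98 and 5.72 CPM in mutant libraries and 4.19 and 9.78 CPM in heterozygous libraries, against 10.1 and 15.5 CPM in wild-type libraries (-1.56, SE 0.50, adjusted p = 0.0640), and did not pass. Of 11 megakaryocyte and platelet genes only 4 were tested and 2 rose: Itga2b, the integrin alpha chain of platelets, by 1.37 (SE 0.14, adjusted p = 0.00229) and Gp1ba by 1.91 (SE 0.56, adjusted p = 0.0498). Their sum was 21.2 to 22.3 RPM in mutant libraries, 16.7 to 22.8 in heterozygous libraries and 6.21 to 11.9 in wild-type libraries, and the platelet marker Pf4 had 0 reads in heterozygous and wild-type libraries. Of 12 white cell markers 9 were tested. Mrc1 rose by 3.02 (SE 0.23, adjusted p = 0.00106) and Laptm5 fell by 2.01 (SE 0.58, adjusted p = 0.0470). Laptm5 was at 1.06 and 1.81 CPM in mutant libraries and 1.22 and 3.25 CPM in heterozygous libraries, against 3.97 and 7.59 CPM in wild-type libraries, and its r with the globin sum was 0.82. The white cell markers' sum was 21.2 to 26.6 RPM in mutant libraries and 18.6 to 20.1 in heterozygous libraries, against 15.1 to 32.3 in wild-type libraries.

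Yolk sac endoderm, the tissue next to the blood islands, ran the other way from the globins in the comparison of mutant with wild type. All 12 of its markers rose there, with a median log2 fold change of 8.92, and all 12 rose in heterozygous against wild type. Heterozygous replicate 2, with 227 globin RPM, had a yolk sac sum of 1947 and heterozygous replicate 1, with 4.16 globin RPM, one of 2704. The heart markers summed to 1875 and 1061 RPM in mutant libraries, 1705 and 2755 in heterozygous libraries and 225 and 49.4 in wild-type libraries. A high heart sum thus stood beside low globin levels in both mutant libraries and heterozygous replicate 1. It stood beside a high globin level in heterozygous replicate 2. Both wild-type libraries had low heart sums beside high globin levels. Whether dissected tissue has a part in the globin levels was not tested.

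**Figure D4:**
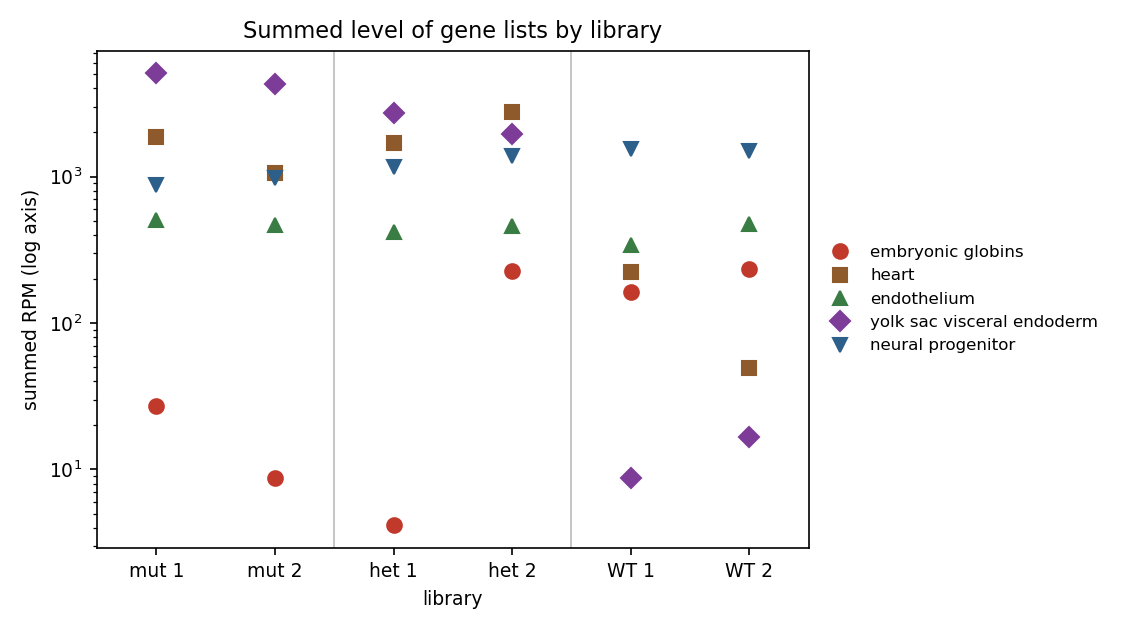
Summed RPM (log axis) of the embryonic globin genes and of markers of heart, endothelium, yolk sac visceral endoderm and neural progenitors in each library. The globin sum spans 4.16 to 232, the yolk sac sum 8.70 to 5066, and the endothelial sum stays between 340 and 502.

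Other genes were ranked by how like their pattern over the 6 libraries was to that of the summed embryonic globins. The measure was Pearson's r of log2(CPM + 0.1) with the log2 globin sum, over 13209 genes with a mean of at least 1 CPM. Predicted genes, with Gm or Rik symbols, were passed over in naming the leading ones. The 8 leading ones that remain were Slc6a17, Arhgef10, Zxda, Rev3l, Kcnab2, Jak2, Top1mt and Oxld1, with r between 0.976 and 0.992. None of these 8 passed in mutant against wild type, and their SD over the libraries was only 0.16 to 0.42 on the log2 scale. In all, 209 genes had an r above 0.9. The 6 libraries formed a low and a high set in globin level, so r mostly measures which set a gene follows. Among the members r with the globin sum was 0.92 for Klf1, 0.80 for Alas2, 0.13 for Gata1 and 0.13 for Tal1. Of the 17 membrane genes 47.1% had an r above 0.8, against 6.93% of all tested genes. The same share was 27.3% of the red cell enzyme genes, 25% of the transcription factors, 23.1% of the neural progenitor markers, 14.3% of the heme genes, 11.1% each of the iron, erythropoietin and Kit, and white cell genes, and 0 of the endothelial, platelet, yolk sac and heart genes. The median r was 0.78 for the membrane genes, -0.54 for the heme genes and -0.53 for the iron genes. Membrane genes above 0.8 included Ank1, Epb4.2, Dmtn, Add2, Ermap and Slc4a1, named, apart from Slc4a1, after their values were seen. In heterozygous replicate 1 Ermap and Epb4.2 were at 0.0966 CPM and Slc4a1 at 0.0644 CPM, levels of about 3 reads or fewer. The lowest r among the membrane genes were -0.34 for Tmod1, -0.002 for Tspan33 and 0.15 for Aqp1.

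Promoters of 8 of the 9 genes were found in RefSeq (GRCm38.p6). The 250 bases before each RefSeq start were searched on both strands for GATAA, part of the site that Gata1 binds, and CACCC, the box that Klf1 binds. Some of these starts differ from those of the gene spans given above. Most of the Hba-x stretch lies inside its span, which begins at 32276400. The stretches of Hbb-y (chr7:103853208-103853457, minus strand) and Hba-x (chr11:32276350-32276599, plus strand), the 2 embryonic globin genes with an entry, are shown with both motifs in capitals.
Hbb-y: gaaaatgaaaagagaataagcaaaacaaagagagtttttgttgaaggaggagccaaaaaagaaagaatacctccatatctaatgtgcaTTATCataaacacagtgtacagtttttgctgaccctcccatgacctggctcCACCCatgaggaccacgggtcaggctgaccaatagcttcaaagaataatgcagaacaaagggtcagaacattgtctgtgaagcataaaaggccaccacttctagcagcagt
Hba-x: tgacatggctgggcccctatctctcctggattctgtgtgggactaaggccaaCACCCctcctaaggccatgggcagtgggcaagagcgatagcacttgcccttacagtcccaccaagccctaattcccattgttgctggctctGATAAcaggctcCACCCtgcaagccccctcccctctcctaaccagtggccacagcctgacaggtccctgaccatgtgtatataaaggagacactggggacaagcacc

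The Hbb-y promoter holds 1 match of the GATA motif, on the opposite strand and read as TTATC, and 1 CACCC box; that of Hba-x holds 1 match of the GATA motif and 2 boxes. The GATA motif was found in promoters of 7 of the 8 genes, all but Gata1, and the box in those of all 8. Among all 32851 promoters listed, 22.6% hold the GATA motif, 52.0% hold the box and 10.1% hold both. These shares are by promoter, while a member gene was counted if any of its promoters held the motif. Hba-a1 and Hba-a2 have nearly the same promoter sequence, so their matches are not separate. The motifs do not overlap. Tal1, whose level did not follow the globins, holds both motifs in 1 of its promoters. A match is a description of these letters and not a bound site.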

How the data were processed

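The submitters' processing notes name TopHat2 2.0.11, HTSeq 0.6.1p2, edgeR 3.8.6 and build mm10. Annotation and strand setting were not found in these notes or the files; overlapping and antisense genes are thus uncertain. Raw counts by gene, 1 file a library, were deposited, with 5 summary lines that stayed out of library sizes (8.93% to 10.5% of reads had no feature). The authors' second table holds RPKM by library and, by comparison, log2 fold changes, a likelihood ratio as score, p-values and false discovery rates. Only its comparison of mutant with wild type was used.

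Count files were assigned by the title in their name. Each matched the RPKM column of that title: in zeros, and in the ratio of count to RPKM relative to wild-type replicate 1, which at genes above 50 reads in both libraries lay within 0.1% of 1 constant for 100% of genes (wild-type replicate 1 is matched by zeros alone). The test was edgeR's (version 4.0.16, R 4.3.3): TMM, filterByExpr, glmQLFit and glmQLFTest, 1 fit of the 6 libraries (3 degrees of freedom left), Benjamini-Hochberg over 15187 genes, threshold 0.05. The code was tested on simulated data. SE is the absolute log2 fold change over the square root of F. CPM of single genes uses TMM sizes, sums use library totals, and 3 reads equal 0.0742 to 0.102 RPM.

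Alternatives were other scalings, no filter, the likelihood ratio test, DESeq2 1.42.0, limma 3.58.1 on log2(RPKM + 0.1) and log2(RPKM + 1), only the groups compared, the files as attached and each library left out. Members and the 15 gene lists (167 of 171 entries found) were chosen with earlier results of these data known. Named genes are all 9 members and up to 4 genes of each list with the smallest p in mutant against wild type. The 8 genes most like the embryonic globins are also named, with predicted genes passed over. Some genes that this rule names are not reported here.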

Additional observations from a re-analysis of the deposited data

How the results depend on the processing

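With 2 libraries a group and few degrees of freedom, calls depend on single libraries and on how files are assigned. No paired analysis was possible because the titles give no shared replicate numbers. Titles hold a number for mutant and wild-type libraries and a letter for heterozygous ones, and the labels do not say what these stand for. The form of the title thus goes with genotype. The number of wild-type replicate 2 is nearer those of the mutant libraries than that of wild-type replicate 1. Whether what the titles stand for has a part in the results was not tested. Depth limits Hbb-y in mutants, which rests on 40 and 3 reads, and Klf1 and Gata1, which have 68 reads or fewer in every library. Of the members' fold changes recomputed under the alternatives, 335 kept their direction and side of the threshold, 29 reversed, 9 newly passed in the same direction and 5 no longer passed; 1 of those reversed, Tal1 in mutant against wild type with the neural scaling, also newly passed.

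In mutant against wild type 4654 genes were called, against 0 with the files as attached, 10766 with scaling to the neural progenitor list and 1997 to 4265 on leaving out 1 library. Of the members 1 was called, against 0 as attached, 2 with the neural scaling (Hbb-y and Tal1), 2 in DESeq2 (Hbb-y and Alas2), 0 in limma on log2(RPKM + 0.1) with no filter, 3 with only the groups compared and 0 to 3 on leaving out 1 library. In limma with no filter Hbb-y was at -5.86 (adjusted p = 0.0640). Used as attached, the files gave a log2 fold change of 0.41 for Hbb-y, 0.30 for Hbb-bh1, 0.35 for Hba-x, 1.84 for Alas2, 0.19 for Klf1 and 0.25 for Tal1. The neural scaling moved the median of all genes by 0.65, 0.24 and 0.42 in mutant against wild type, heterozygous against wild type and mutant against heterozygous, and put Tal1 at 0.46 in the first.

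In heterozygous against wild type 997 genes were called, against 0 as attached, 1546 with the neural scaling, 1579 in the likelihood ratio test, 1890 in DESeq2 and 313 to 748 on leaving out 1 library; of the members 0 were called, and 0 to 1 on leaving out 1 library. As attached, Hbb-bh1 was at 0.41, Hba-x at 0.38 and Alas2 at 0.0801. Klf1 was at -0.36 in limma on log2(RPKM + 0.1), with or without the filter, and at -0.0373 with 1 added. On leaving out 1 library Hbb-y ranged between -6.27 and -1.24, Alas2 between -3.14 and -0.22, Hbb-bh1 between -5.01 and 0.41, Hba-x between -5.85 and 0.30, Klf1 between -2.15 and 0.98 and Tal1 between -0.0384 and 0.31.

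In mutant against heterozygous 66 genes were called, against 0 as attached, 5205 with the neural scaling, 182 with no filter, 801 in the likelihood ratio test, 1313 in DESeq2, 43 in limma with no filter, 106 with only the groups compared and 11 to 81 on leaving out 1 library. As attached, Hbb-y was at 1.42 and Alas2 at 1.76. With the neural scaling Alas2 was at 0.0931, Gata1 at 0.23 and Tal1 at 0.0774. On leaving out 1 library Hbb-y ranged between -5.69 and 0.91, Hbb-bh1 between -3.28 and 2.13, Hba-x between -4.21 and 2.30, Alas2 between -1.07 and 0.94, Klf1 between -1.80 and 1.32 and Gata1 between -0.76 and 0.57; each turned positive without heterozygous replicate 2. The cause of these changes was not tested.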
